A study of Mus musculus with 4 samples.

Results

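The cell cycle and mitosis genes described here are 44 genes of the DNA replication and division machinery, taken by gene symbol from the 55401 genes of the deposited tables. The cells were CD45+ leukocytes sorted from the dura mater, the outer layer of the meninges, of WT male C57BL/6J mice, and their RNA was sequenced in bulk. At 4 wk of age the mice had received 2 μl of an adeno-associated virus (AAV) into the cisterna magna, the fluid space behind the brainstem. AAV-mVEGF-C carried full-length mouse VEGF-C, the growth factor of lymphatic vessels. AAV-CTRL carried a soluble immunoglobulin fusion of VEGFR-3 domains that do not bind VEGF-C, so both groups had received virus and no uninjected group was analysed here. Each group had 2 libraries, numbered by experiment, and each library came from a pool of 10 to 12 mice, so that the spread between mice was not measured. The comparison asks whether VEGF-C changed the division program of dural leukocytes. In bulk RNA, fewer dividing cells and less of these RNAs per cell cannot be told apart.

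A dividing cell first copies its DNA in S phase and then separates the copies in mitosis, and the genes for these steps are transcribed in successive waves. E2F factors drive the first wave, which holds the MCM helicase, PCNA and the enzymes that make deoxynucleotides. The later wave, of cyclin B, mitotic kinases and spindle proteins, is driven by the MuvB complex with B-Myb and FOXM1, and in resting cells the DREAM complex, which also contains MuvB, represses it. MuvB acts at the cell cycle homology region (CHR), and NF-Y binds CCAAT boxes nearby. Most mature leukocytes of a resting tissue are out of the cycle, whereas lymphoid and myeloid precursors, activated lymphocytes and plasmablasts divide.

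The promoters of the genes carried the letters of these waves in different shares. RefSeq promoters, each running from 250 bases before to 50 bases after the start of a gene on GRCm38.p6, matched 37 of the 44 genes, 3 of them with 2 windows. The motifs searched on both strands were TTTGAA and TTCGAA for the CHR, CCAAT for the CCAAT box, and TTTCCCGC, TTTCGCGC, TTTGCCGC and TTTGGCGC for an E2F site. A CHR was found in 21 of the 37 genes (56.8%), against 21.7% of all 27025 genes with a promoter in the table. Among the genes of DNA synthesis it was found in 2 of 11 (18.2%), and among the other genes in 19 of 26 (73.1%). An E2F site was found in 5 of the 11 (45.5%) and 3 of the 26 (11.5%), against 2.6% of all genes. A CCAAT box was present in 30 of the 37 (81.1%), against 41.1% of all genes, with similar shares in the genes of DNA synthesis (81.8%) and the others (80.8%). A match describes letters only and is no evidence of binding.

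The 6 promoters printed here are examples from the genes described in full below, with an E2F site (*Mcm3*, *Mcm5*, *Mcm6*), a CHR (*Mki67*, *Top2a*) or both (*Cdk1*). Of the others described in full, *Cdk2* also held an E2F site, *Mcm2* a CHR and *Mcm7* both. Each runs 5′ to 3′ on the strand of its gene, with matches in capitals: ATTGG is CCAAT read on the other strand, TTCAAA is TTTGAA, GCGGGAAA is TTTCCCGC, GCGCGAAA is TTTCGCGC and GCGCCAAA is TTTGGCGC. In the runs TTTGGCGCGAAA of *Mcm6* and TTTCGCGCCAAA of *Mcm5*, E2F matches on opposite strands overlap.
Mcm3 (chr1:20820263-20820562, minus strand): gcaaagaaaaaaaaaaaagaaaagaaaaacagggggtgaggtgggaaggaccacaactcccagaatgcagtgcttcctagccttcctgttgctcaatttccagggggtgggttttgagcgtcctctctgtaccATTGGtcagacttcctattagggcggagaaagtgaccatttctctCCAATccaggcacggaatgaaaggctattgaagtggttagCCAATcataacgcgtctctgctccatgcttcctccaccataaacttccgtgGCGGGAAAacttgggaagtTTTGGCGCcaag
Mcm5 (chr8:75109259-75109558, plus strand): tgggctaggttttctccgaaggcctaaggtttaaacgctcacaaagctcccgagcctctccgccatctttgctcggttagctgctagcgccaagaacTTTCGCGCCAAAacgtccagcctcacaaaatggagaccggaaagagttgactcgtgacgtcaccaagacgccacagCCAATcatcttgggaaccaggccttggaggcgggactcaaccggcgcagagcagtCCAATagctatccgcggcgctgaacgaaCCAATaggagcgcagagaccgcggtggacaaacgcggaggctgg
Mcm6 (chr1:128359656-128359955, minus strand): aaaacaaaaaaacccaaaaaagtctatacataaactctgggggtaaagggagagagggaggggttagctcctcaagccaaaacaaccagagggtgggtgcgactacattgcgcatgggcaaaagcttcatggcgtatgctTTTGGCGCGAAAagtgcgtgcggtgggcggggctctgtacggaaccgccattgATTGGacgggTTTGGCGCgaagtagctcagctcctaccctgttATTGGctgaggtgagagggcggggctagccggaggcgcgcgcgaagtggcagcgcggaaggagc
Cdk1 (chr10:69352863-69353162, minus strand): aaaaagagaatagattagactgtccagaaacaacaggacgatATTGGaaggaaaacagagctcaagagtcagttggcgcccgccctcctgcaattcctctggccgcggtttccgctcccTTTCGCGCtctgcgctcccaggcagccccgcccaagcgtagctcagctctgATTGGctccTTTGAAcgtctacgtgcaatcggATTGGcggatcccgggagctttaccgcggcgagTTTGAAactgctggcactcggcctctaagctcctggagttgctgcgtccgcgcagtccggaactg
Mki67 (chr7:135716330-135716629, minus strand): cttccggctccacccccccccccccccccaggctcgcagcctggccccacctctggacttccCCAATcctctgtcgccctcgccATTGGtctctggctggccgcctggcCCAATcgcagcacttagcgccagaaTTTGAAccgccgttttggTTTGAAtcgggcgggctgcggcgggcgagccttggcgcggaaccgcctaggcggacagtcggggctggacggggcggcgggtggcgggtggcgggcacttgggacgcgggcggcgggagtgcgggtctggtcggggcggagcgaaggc
Top2a (chr11:99024140-99024439, minus strand): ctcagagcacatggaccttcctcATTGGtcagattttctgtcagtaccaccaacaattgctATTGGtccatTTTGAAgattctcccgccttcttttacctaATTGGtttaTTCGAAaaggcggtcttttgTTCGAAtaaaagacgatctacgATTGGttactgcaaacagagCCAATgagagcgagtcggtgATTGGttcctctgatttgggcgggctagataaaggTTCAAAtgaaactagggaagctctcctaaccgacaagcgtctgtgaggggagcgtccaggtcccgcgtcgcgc
The *Cdk1* promoter held CHR letters 15 bases before the start and an E2F site 131 bases before it. The *Top2a* promoter held 4 CHR and 6 CCAAT matches. The window of *Ccnb1*, a gene of the later wave, had CCAAT boxes only, at 99 and 67 bases before the start.

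The 4 libraries held 32520649 to 46409685 reads assigned to genes, and all 44 genes passed the expression filter, with 179 to 41209 reads per gene and library and none at 0. AAV-CTRL 1, with 46409685 reads, had 20990 detected genes, against 29221 to 37512 in the other libraries. The leukocyte marker *Ptprc*, which encodes CD45, was at 191 to 215 TPM (transcripts per 1000000, a unit corrected for gene length) in every library. The cell cycle genes together made up 0.112% of all TPM in AAV-CTRL 1 and 0.0765% in AAV-CTRL 2. In the AAV-mVEGF-C pools the share was 0.0759% and 0.0711%. Where a pair of values is given for a group here and below, pool 1 comes first and pool 2 second.

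No cell cycle gene passed the test between AAV-mVEGF-C and AAV-CTRL. With edgeR's quasi-likelihood test and Benjamini-Hochberg adjustment over the 19806 genes tested, 0 of the 44 had an adjusted p under 0.05 (0% of all genes), and the adjusted p was 0.999 for each. At an unadjusted p under 0.05 there were also 0 of 44, against 1.18% of all genes on the lower side and 1.46% on the higher side. DESeq2 gave 0 of 44 after adjustment, against 0.389% of all genes, and 1 of 44 (*Uhrf1*) before it, against 3.85%. With no filter on low counts, 11 of the 44 had an unadjusted p under 0.05 in edgeR, all lower, against 3.26% of all genes. With limma on log2(TPM + 1), *Mcm2* and *Uhrf1* did, against 4.55% of all genes, and after adjustment 0 of the 44 passed in either setting. The fitted fold change was below 0 for 39 of the 44 genes (88.6%) and for 49.6% of all genes tested. Its median was -0.27 on the log2 scale, against 0.0034 for all genes, with a range from -0.55 for *Ccnb1* to 0.17 for *Foxm1* and standard errors of 0.15 to 0.41. The values above 0 were those of *Mki67*, *Cdk1*, *Cenpe*, *Cenpf* and *Foxm1*. Genes of a shared program are not independent of one another, and their number does not replace replicate pools.

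The sum of the 44 genes showed the spread behind this result. Summed TPM were 1117 and 765 in the AAV-CTRL pools against 759 and 710 in the AAV-mVEGF-C pools. A single control pool stood high, and the other control pool was within a few TPM of AAV-mVEGF-C 1. The AAV-CTRL mean was 941 ± 249 (SD, n = 2). The AAV-mVEGF-C mean was 735 ± 34.5 (SD, n = 2), which is 0.781 of the control mean. In counts per 1000000 reads (CPM, after TMM scaling of the libraries) the sums were 4272 and 2647 against 3152 and 2879, with a ratio of 0.872 and AAV-CTRL 2 the lowest library. The exact two-sided permutation test gave p = 0.333, the smallest value that 2 pools against 2 allow.

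The larger difference in the cell cycle genes lay between the control pools. In CPM, AAV-CTRL 1 was the highest library for 43 of the 44 genes, against 32.6% of all genes, the exception being *Cdk1*. AAV-CTRL 2 was the lowest library for 29 of the 44, against 19.4% of all genes. The difference in log2(CPM + 1) between AAV-CTRL 1 and AAV-CTRL 2 was above 0 for all 44, from 0.091 for *Mcm4* to 1.30 for *Nusap1*, with a median of 0.78 against -0.069 for all genes. Between AAV-mVEGF-C 1 and 2 the median difference was 0.12, with 30 of 44 above 0. On the TPM scale AAV-CTRL 1 was the highest library for 37 of the 44, against 31.3% of all genes, the exceptions being *Ccne1*, *Mcm2* and *Mcm4* (highest in AAV-CTRL 2) and *Ccne2*, *Cenpe*, *Prc1* and *Foxm1* (highest in AAV-mVEGF-C 1). The lowest library in TPM was AAV-CTRL 2 for 11 of the 44, against 8.63% of all genes, and an AAV-mVEGF-C pool for the other 33. The order of the libraries is given in CPM from here on unless TPM is named.

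**Figure D1:**
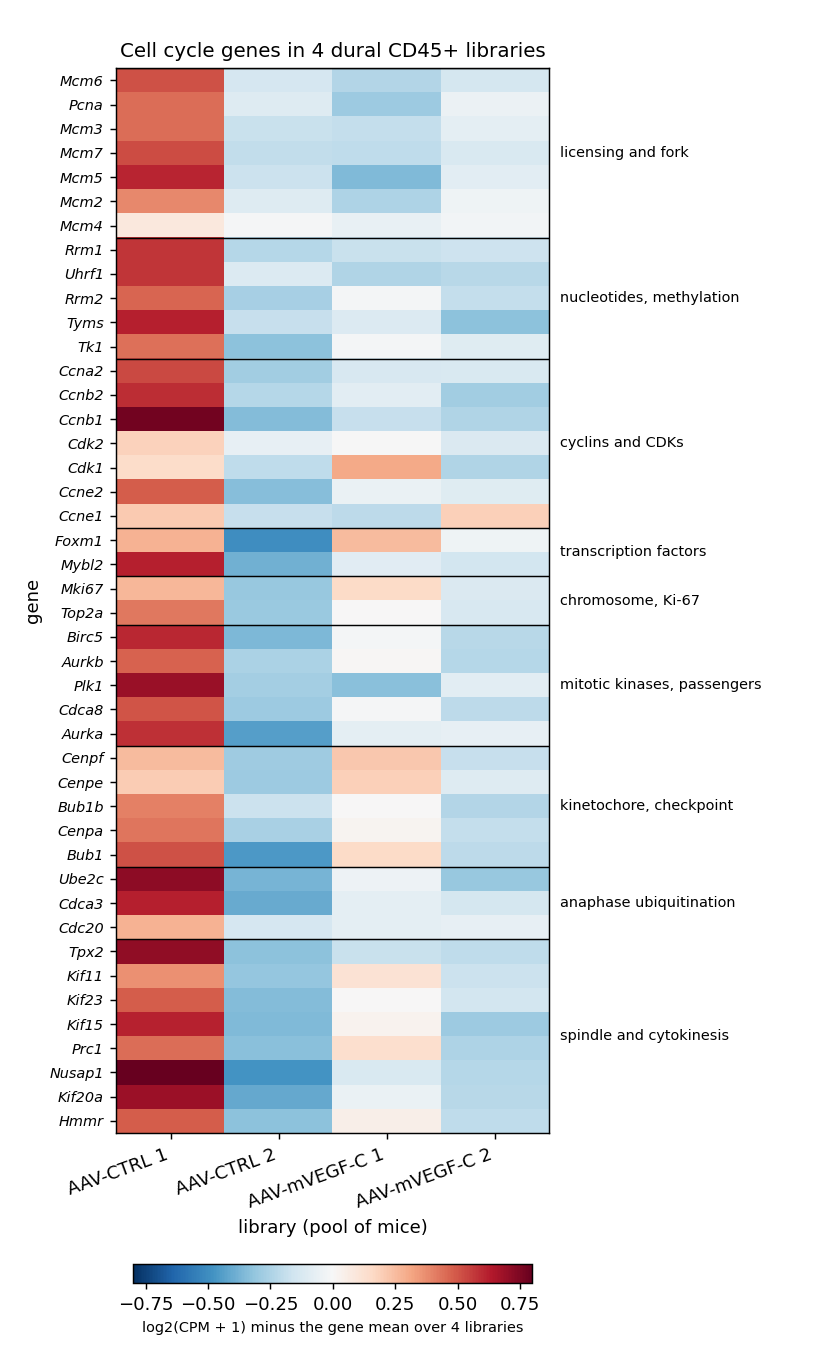
Each row is 1 of the 44 cell cycle genes, grouped by role, and each column is 1 library; color gives log2(CPM + 1) minus the mean of the gene over the 4 libraries. The AAV-CTRL 1 column is the highest for 43 of the 44 genes and AAV-CTRL 2 the lowest for 29.

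**Figure D2:**
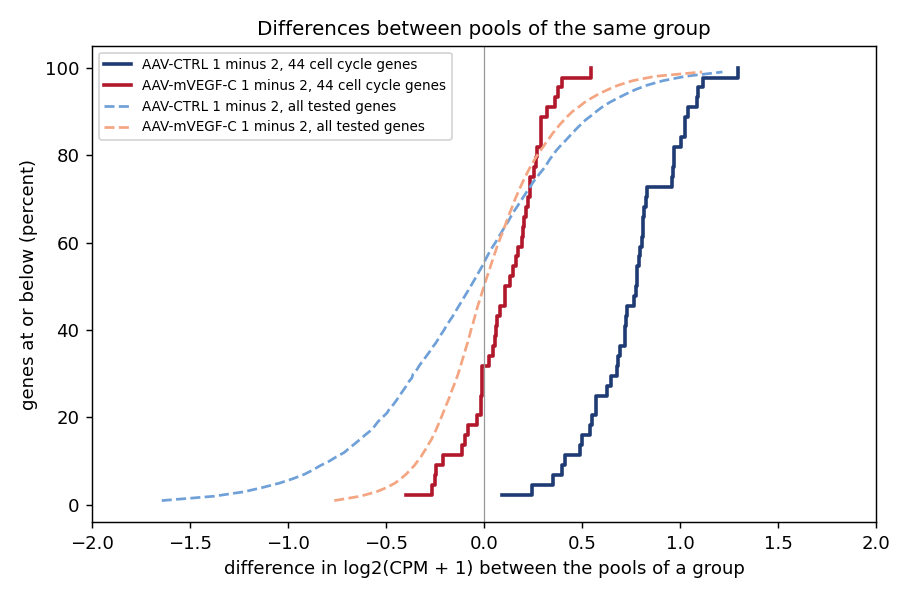
Cumulative percent of genes (vertical axis) by the difference in log2(CPM + 1) between the pools of a group (horizontal axis), for the 44 cell cycle genes (solid) and all 19806 genes tested (dashed). The AAV-CTRL curve of the cell cycle genes lies wholly above 0, with a median of 0.78, whereas the AAV-mVEGF-C curve has a median of 0.12.

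The direction of the median fold change in counts depended on the control pool used, while summed TPM were lower in AAV-mVEGF-C against either control pool. Without AAV-CTRL 1, the median log2 fold change was 0.20, with 37 genes above 0 and 7 below, against 49.6% of all genes above 0, and 0 of the 44 had an adjusted p under 0.05, against 1.07% of all genes. Without AAV-CTRL 2, it was -0.61 with all 44 genes lower, and 23 had an adjusted p under 0.05 in edgeR's quasi-likelihood test, against 2.92% of all genes called lower in that fit. Leaving out AAV-mVEGF-C 1 or 2 gave medians of -0.34 and -0.22. With a single control pool, that pool was assumed to vary like the AAV-mVEGF-C pools. In CPM, both AAV-mVEGF-C libraries were below both AAV-CTRL libraries for 3 of the 44 genes (*Mcm4*, *Mcm6*, *Uhrf1*), against 15.2% of all genes, and above both for 0 of 44, against 16.8% of all genes. In TPM they were below both for 17 of the 44, against 28.5% of all genes, and above both for 0 of 44, against 8.92%. The 17 held 10 of the 12 genes of DNA synthesis, *Rrm2* and *Tk1* being the others.

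**Figure D3:**
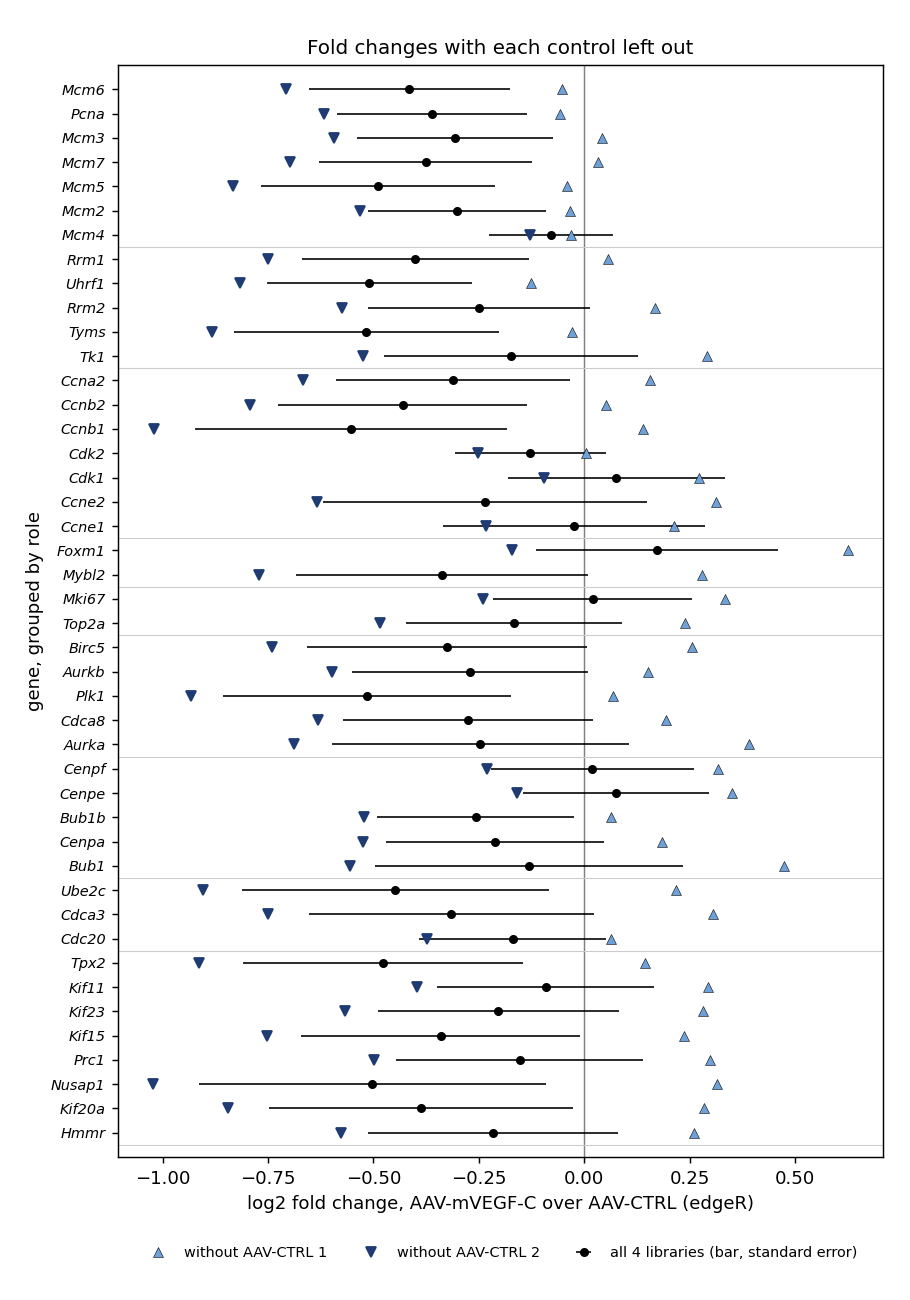
Log2 fold change of AAV-mVEGF-C over AAV-CTRL (horizontal axis) for each of the 44 genes (vertical axis), with all 4 libraries (circles, bars are standard errors), without AAV-CTRL 1 (upward triangles) and without AAV-CTRL 2 (downward triangles). All 44 values lie below 0 without AAV-CTRL 2, and 37 of 44 lie above 0 without AAV-CTRL 1.

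The 7 genes of replication licensing and the fork had fitted fold changes from -0.49 to -0.08. In CPM each was highest in AAV-CTRL 1 and lowest in AAV-mVEGF-C 1. In TPM both AAV-mVEGF-C libraries were below both AAV-CTRL libraries for all 7, against 28.5% of all genes. In CPM this held for 2 of the 7 (*Mcm4*, *Mcm6*), against 15.2% of all genes. *Pcna*, which encodes the sliding clamp of the DNA polymerases, was the most abundant of the group by TPM, at 89.1 and 70.2 TPM in the AAV-CTRL pools against 57.7 and 63.9 TPM in the AAV-mVEGF-C pools. In CPM these were 156 and 106 against 93.0 and 111, so the groups were apart in TPM and overlapped in CPM, with a log2 fold change of -0.36 ± 0.23 (SE). *Pcna* has a pseudogene copy, Pcna-ps2, which was given 234 to 327 reads per library against 3512 to 6964 for *Pcna*.

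The MCM2 to MCM7 proteins form the ring-shaped helicase that is loaded at replication origins and opens the DNA. *Mcm6* was at 185 and 118 CPM in the AAV-CTRL pools against 110 and 118 CPM in the AAV-mVEGF-C pools (log2 fold change -0.41 ± 0.24). *Mcm5* was at 129 and 74.6 CPM against 65.8 and 79.2 CPM (-0.49 ± 0.28). In *Mcm5* the second AAV-mVEGF-C pool was above the second control pool, while in *Mcm6* the groups were apart by less than 1 CPM. *Mcm3* was at 149 and 96.1 CPM against 95.2 and 103 CPM (-0.31 ± 0.23). *Mcm7* was at 134 and 80.7 CPM against 80.1 and 84.9 CPM (-0.38 ± 0.25). In both of these genes 3 libraries lay close together below AAV-CTRL 1. *Mcm2* was at 114 and 81.0 CPM against 73.4 and 85.0 CPM (-0.30 ± 0.21). *Mcm4* was at 85.6 and 80.3 CPM against 77.5 and 79.5 CPM, with the smallest difference of the ring (-0.08 ± 0.15). Subunits that act as 1 complex thus differed in how far AAV-CTRL 1 stood apart, from 0.091 in *Mcm4* to 0.78 in *Mcm5* on the log2(CPM + 1) scale.

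The 5 genes of deoxynucleotide supply and of copying DNA methylation had a median log2 fold change of -0.40. Without AAV-CTRL 1 it was 0.056, with 3 of the 5 above 0. *Uhrf1*, which recruits the maintenance DNA methyltransferase to newly copied DNA, had the smallest p of the 44 (unadjusted p = 0.0807, edgeR's quasi-likelihood test) and is described for that reason, after its values were seen. It was at 122 and 76.0 CPM in the AAV-CTRL pools against 69.2 and 70.1 CPM in the AAV-mVEGF-C pools, so both treated pools were below both controls. Its log2 fold change was -0.51 ± 0.24, and -0.13 without AAV-CTRL 1. *Tyms*, the thymidylate synthase, was at 27.9 and 15.5 CPM against 16.4 and 13.9 CPM (-0.52 ± 0.31), so that the groups overlapped, whereas in TPM they were apart. *Rrm1* and *Rrm2*, the subunits of ribonucleotide reductase, and the thymidine kinase *Tk1* had values of -0.40, -0.25 and -0.17.

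Cyclins and cyclin-dependent kinases (CDKs) time the entry into S phase and mitosis. *Ccnb1*, the cyclin of mitotic entry, had the lowest fitted fold change of all 44 genes, -0.55 ± 0.37. It was at 45.5 and 20.4 CPM in the AAV-CTRL pools against 22.9 and 22.0 CPM in the AAV-mVEGF-C pools. A single library set this value, since AAV-CTRL 2 was the lowest of the 4, and without AAV-CTRL 1 the value was 0.14. *Cdk1*, its kinase partner, was at 27.7 and 21.5 CPM against 31.0 and 20.95 CPM (0.08 ± 0.26). Here an AAV-mVEGF-C pool was the highest and the other the lowest library, and in TPM the order changed to 28.5 and 18.7 against 23.3 and 18.2 TPM. *Ccna2* and *Ccnb2* had values of -0.31 and -0.43.

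Cyclin E and CDK2 act at the entry into S phase. *Cdk2*, the kinase of S phase, was at 39.0 and 32.7 CPM against 34.0 and 31.5 CPM (-0.13 ± 0.18). *Ccne1*, a cyclin partner of *Cdk2*, was at 9.95 and 7.33 CPM against 7.19 and 9.81 CPM (-0.02 ± 0.31). For *Ccne1* each group held a high and a low pool. *Ccne2* was at 10.0 and 5.21 CPM against 6.58 and 6.34 CPM (-0.24 ± 0.38), on 179 to 447 reads per library, the fewest of the 44 genes in all libraries but AAV-CTRL 1. On the TPM scale *Ccne2* read 3.61 and 2.28 against 4.67 and 2.29 TPM, and with TPM its log2 fold change was above 0.

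The fitted values of the mitotic transcription factors had opposite signs, and neither passed the test. *Foxm1* had the highest fitted fold change of the 44 genes, 0.17 ± 0.29, from 51.0 and 29.4 CPM in the AAV-CTRL pools against 49.9 and 40.7 CPM in the AAV-mVEGF-C pools. Without AAV-CTRL 1 its value was 0.63 with an unadjusted p of 0.0052 and an adjusted p of 0.197 in edgeR's quasi-likelihood test, and it was the 1 gene of 44 with an unadjusted p under 0.05 in that fit, against 8.09% of all genes. *Mybl2*, which encodes B-Myb, was at 33.4 and 16.2 CPM against 20.1 and 19.2 CPM (-0.34 ± 0.35). In both genes AAV-CTRL 2 was the lowest library in CPM.

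*Mki67* and *Top2a* are among the most used markers of cycling cells. *Mki67*, whose protein Ki-67 coats mitotic chromosomes, was at 922 and 620 CPM in the AAV-CTRL pools against 854 and 709 CPM in the AAV-mVEGF-C pools, with a log2 fold change of 0.02 ± 0.24. *Top2a*, the topoisomerase that untangles sister chromatids, was at 350 and 213 CPM against 262 and 239 CPM (-0.17 ± 0.26). For both genes the AAV-mVEGF-C libraries lay between the control libraries in CPM, whereas in TPM AAV-mVEGF-C 2 was the lowest. In TPM, *Mki67* was at 64.9 and 50.03 against 58.5 and 48.8 TPM, and *Top2a* at 59.1 and 42.4 against 45.7 and 39.9 TPM.

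The 21 remaining mitotic genes shared this pattern of a high AAV-CTRL 1. The 5 genes of mitotic kinases and the chromosomal passenger complex (*Aurka*, *Aurkb*, *Plk1*, *Birc5*, *Cdca8*) had values from -0.52 to -0.25. *Plk1*, the kinase that acts from mitotic entry to cytokinesis, was at 37.4 and 18.8 CPM against 17.9 and 21.4 CPM (-0.52 ± 0.34), and its value was 0.07 without AAV-CTRL 1. The 5 genes of the kinetochore and spindle checkpoint had values from -0.26 for *Bub1b* to 0.08 for *Cenpe*, the kinetochore motor, which was at 85.8 and 60.5 CPM against 84.9 and 69.2 CPM. The groups overlapped for all 10 of these genes in CPM, and in TPM for all but *Bub1b* and *Cdca8*. In TPM, 28.5% of all genes had both AAV-mVEGF-C libraries below both controls and 8.92% above.

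Of the 3 genes of ubiquitination at anaphase, *Ube2c*, the ubiquitin-conjugating enzyme of the anaphase-promoting complex, was at 54.3 and 25.0 CPM against 31.8 and 26.3 CPM (-0.45 ± 0.36), while *Cdc20* and *Cdca3* had values of -0.17 and -0.32. The 8 genes of the spindle and cytokinesis had values from -0.50 to -0.09, and AAV-CTRL 2 was the lowest library for all 8 in CPM. *Nusap1*, which bundles spindle microtubules, was at 54.1 and 21.4 CPM against 27.7 and 25.6 CPM (-0.50 ± 0.41), the largest gap between the control pools. *Kif11*, the motor that pushes the spindle poles apart, was at 106 and 65.6 CPM against 88.5 and 72.3 CPM.

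The genes of DNA synthesis and the others had different values once AAV-CTRL 1 was left out, a split made by joining role groups after the values were seen and so given without a test. The 12 genes of DNA synthesis had a median log2 fold change of -0.37 with all libraries and -0.03 without AAV-CTRL 1. The other 32 had -0.24 and 0.26, and all 32 were above 0 without AAV-CTRL 1. The 7 genes below 0 in that fit were *Pcna*, *Mcm2*, *Mcm4*, *Mcm5*, *Mcm6*, *Tyms* and *Uhrf1*, all of them genes of DNA synthesis. The share of the 12 genes of DNA synthesis in the summed TPM of the 44 genes was 37.1 and 40.6% in the AAV-CTRL pools against 34.7 and 38.5% in the AAV-mVEGF-C pools, so that the groups overlapped.

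Further genes of the cycle, listed apart from the 44, were similar. Of 43 further S phase genes 37 had a fitted fold change below 0 (median -0.26). Of 54 further genes of G2 and M phase 43 did (median -0.24), against 49.6% of all genes. In either list 0 had an unadjusted p under 0.05 in edgeR, against 1.18% of all genes lower and 1.46% higher. AAV-CTRL 1 was the highest library for 79 of these 97 genes, against 32.6% of all genes. The median of the 97 was -0.26, and 0.14 without AAV-CTRL 1. The D cyclins and their kinases, which act on entry into the cycle from rest, had a median of 0.09 over 5 genes. It was -0.11 without AAV-CTRL 1 and -0.03 without AAV-CTRL 2. *Ccnd1* and *Ccnd2* were lowest in AAV-CTRL 1, at 53.6 and 181 CPM against 81.5 to 103 and 209 to 240 CPM in the other libraries, whereas *Ccnd3* was highest there, at 247 CPM against 171 to 191 CPM. The CDK inhibitors and quiescence genes had a median of 0.0019 over the 14 of 15 that were tested, *Cdkn2a* having too few reads. Their values ranged from -0.76 to 1.69, 8 above 0 and 6 below, with standard errors up to 1.96. *Cdkn1b*, which encodes the inhibitor p27, was at 118 and 103 CPM against 111 and 110 CPM, and *Btg2*, an antiproliferative gene, at 1134 and 1068 against 1124 and 1242 CPM.

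Markers of dividing cell types moved with the cell cycle genes in part. The 11 neutrophil precursor markers summed to 13564 TPM in AAV-CTRL 1 and to 6168, 6544 and 7148 TPM in AAV-CTRL 2 and AAV-mVEGF-C 1 and 2, and 10 of the 11 were highest in AAV-CTRL 1 in CPM. *Ngp*, *Ltf* and *Camp*, granule genes of later precursors, made up 81.4 to 87.5% of these sums. The other 8 markers, among them *Elane* and *Mpo* of the earliest granules, summed to 2320 and 774 against 1217 and 1050 TPM, highest in AAV-CTRL 1 and lowest in AAV-CTRL 2. The 12 B cell precursor markers summed to 227 and 259 TPM in the AAV-CTRL pools against 184 TPM in each AAV-mVEGF-C library. Most of this sum came from *Cd24a* and *Il7r*, which other leukocytes also express, and without them the remaining 10 markers summed to 27.5 and 83.9 against 25.5 and 34.2 TPM, highest in AAV-CTRL 2. *Vpreb1* and *Vpreb2*, of the surrogate light chain, were at 0 reads in AAV-CTRL 1, whereas *Rag1*, of the recombinase, was at 14.7 and 43.1 against 2.97 and 8.52 CPM and *Rag2* at 3.67 and 1.89 against 0.512 and 1.29 CPM, so that the markers of these precursors did not share an order. The 15 erythroid markers summed to 217 and 262 TPM against 43.1 and 83.3 TPM, and the 10 markers of plasmablasts and plasma cells to 277 and 343 against 560 and 567 TPM. The AAV-CTRL 1 excess was thus seen in the neutrophil precursor list and in neither the B cell precursor, the erythroid nor the plasma cell list, and the part of any of these cells in the cell cycle values was not tested. In edgeR, 6 of 15 erythroid and 2 of 11 tested B cell precursor markers were lower at an unadjusted p under 0.05. Of all genes, 1.18% were. Higher were 4 of 10 plasma cell markers, against 1.46% of all genes. The neutrophil precursor list had 0 of 11 on either side, and after adjustment 0 passed in any list.

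**Figure D4:**
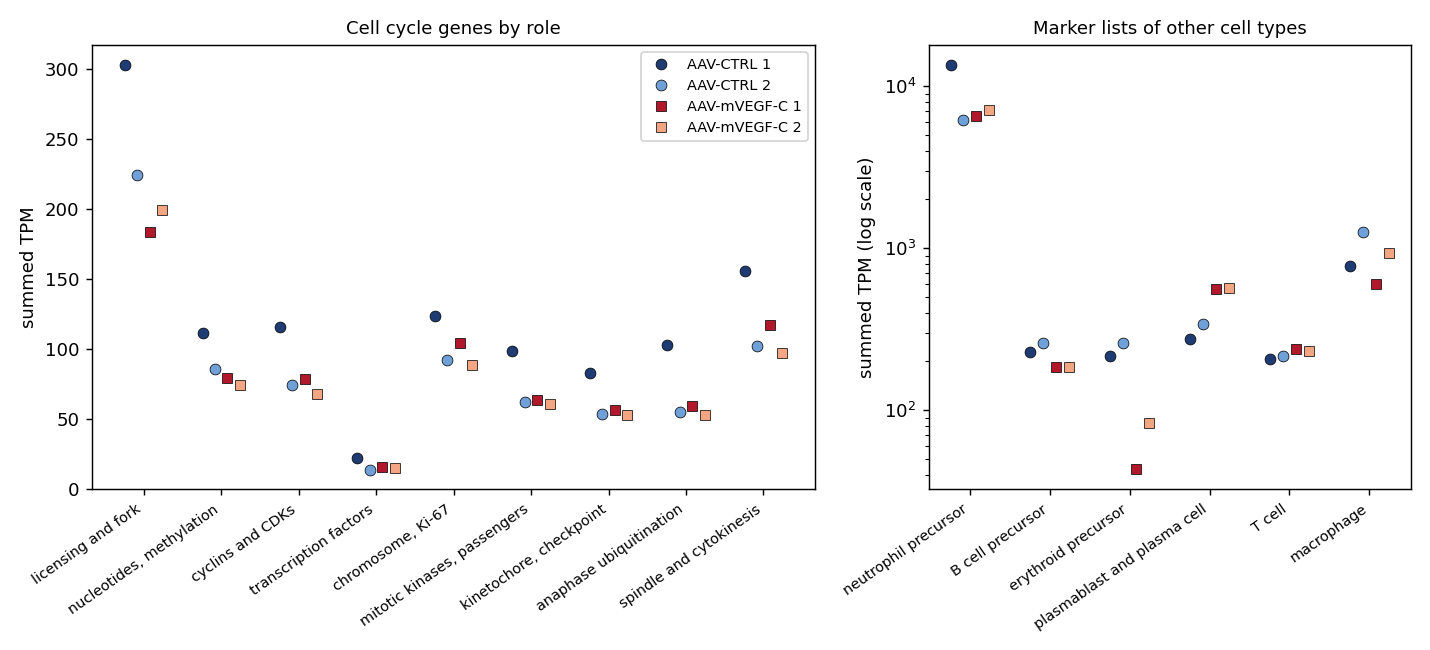
Summed TPM per library for the 9 role groups of the 44 cell cycle genes (left, linear scale) and for 6 lists of cell type markers (right, log scale), with circles for AAV-CTRL and squares for AAV-mVEGF-C pools. AAV-CTRL 1 is the highest library in each role group and in the neutrophil precursor list, where it reads 13564 TPM.

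Lists of other cells showed smaller differences between the control pools or higher values in AAV-CTRL 2. The leukocyte list summed to 1430 and 1303 TPM in the AAV-CTRL pools against 1159 and 1266 TPM in the AAV-mVEGF-C pools. The T cell list summed to 206 and 217 against 237 and 231 TPM. Of its 10 genes, 2 were higher at an unadjusted p under 0.05 in edgeR, against 1.46% of all genes. The macrophage list summed to 772 and 1260 against 602 and 937 TPM. Fibroblast and osteoblast markers, of cells that lack CD45, summed to 106 and 197 against 67.5 and 97 TPM. Of the 10, 4 had an unadjusted p under 0.05 in edgeR, all lower, against 1.18% of all genes. Endothelial markers summed to 25.0 and 24.9 against 14.8 and 17.7 TPM, with 1 of 8 lower at an unadjusted p under 0.05 in edgeR. In CPM, AAV-CTRL 1 was above AAV-CTRL 2 for 0 of these 8 markers, against 8828 of the 19806 genes tested. Summed TPM of both lists were lower in both AAV-mVEGF-C pools. In CPM these pools were below both controls for 6 of the 10 and 3 of the 8 markers, against 15.2% of all genes. The median log2 fold change of the endothelial markers was -0.66 without AAV-CTRL 1 and 0.59 without AAV-CTRL 2. The part of both lists in the cell cycle values was not tested.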

How the data were processed

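RNA of sorted dural CD45+ cells was sequenced as 2 pooled libraries per group. The authors deposited estimated counts per gene, not normalized, of which 8.18% had decimals, and TPM of the same genes. Per the submitters' processing notes, FastQC, Trimmomatic, DRAGEN and Picard were used with build mm10, and their versions and the annotation are not given in the sources used here. Of 55401 gene identifiers, 54349 occur with the same version in GENCODE M21 on GRCm38, all 44 cell cycle genes among them. The library kit (SMARTer, stranded, for very small amounts of total RNA) amplifies fragments by PCR. The paper does not state whether copies were removed before counting.

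Counts were rounded and tested with edgeR 4.0.16 under R 4.3.3 (quasi-likelihood test, TMM, filterByExpr at its defaults, 19806 genes, no covariate, common dispersion 0.173, adjusted p threshold 0.05 by Benjamini-Hochberg over all genes tested). The standard error is the log2 fold change divided by the square root of F. Pools were treated as replicates, so p-values measure the spread between pools only. DESeq2 1.42.0, which the study names, limma 3.58.1 on voom values and on log2(TPM + 1) or log2(TPM + 0.1), other scalings and filters, a replicate block and the omission of each library were alternatives. The fits were tested on simulated data. Summed TPM were compared with an exact permutation test.

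The members, role groups and marker lists were chosen with earlier results of these data known. Given in full were the 4 genes with the highest TPM (*Pcna*, *Mki67*, *Top2a*, *Mcm7*), any member with an unadjusted p under 0.05 (0 were found), and *Ccnb1*, *Cdk1*, *Cdk2*, *Ccne1*, *Ccne2* and *Mcm2* to *Mcm7*, and the others were given by role. *Uhrf1*, *Tyms*, *Foxm1*, *Mybl2*, *Plk1*, *Cenpe*, *Ube2c*, *Nusap1* and *Kif11* were given with library values after these had been seen. *Cd24a* and *Il7r*, and *Ngp*, *Ltf* and *Camp*, were left out of their lists in 1 further sum each after values had been seen. Promoters are those of RefSeq on GRCm38.p6.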

Additional observations from a re-analysis of the deposited data

How the results depend on the processing

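The alternatives left the cell cycle genes without a call, except where AAV-CTRL 2 was left out. Genes past the threshold among all genes tested numbered 0 in the main analysis (523 at an unadjusted p under 0.05), 77 with DESeq2 and 268 with no filter on low counts (1327 unadjusted, 11 of the 44 among them), and 0 to 1798 with each library left out in turn. Of the 44 cell cycle genes, 0 to 23 were past it with a library left out, 23 without AAV-CTRL 2 and 0 otherwise. With the experiment number of the titles as a replicate block, 11 genes were past the threshold and 0 of the 44 were, and no other call changed. Same-numbered libraries deviated from their group means with r = -0.13 (log2 CPM) or -0.035 (log2(CPM + 1)) across genes, so the numbers were not taken as a pairing. The column labels number the control pools differently from the titles, so which pools were handled together is not settled. A crossed pairing, added after the data had been seen, gave 54 genes and 0 of the 44.

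With each library left out, the median of the 44 genes ranged from -0.61 to 0.20, that of the 97 further genes from -0.51 to 0.14, and the log2 ratio of summed TPM, -0.36 with all libraries, from -0.60 to -0.057, while summed CPM gave -0.20. The highest of each was the value without AAV-CTRL 1. The other tools, scalings, filters and units gave medians of the 44 from -0.30 to -0.24, and the replicate block -0.23. The cause of the difference between control pools was not tested.

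Of 264 fold changes of named genes under alternatives, 227 kept their side of the threshold and direction, 12 passed the threshold and 25 changed sign. These cover 22 genes with 12 alternatives each, and other genes given above with a fold change, such as *Rrm1*, were not among them. With log2(TPM + 1) and log2(TPM + 0.1), *Mki67* was at -0.092 and -0.093, *Cdk1* at -0.16 and -0.17, and *Ccne2* at 0.15 and 0.18. With each library left out, fold changes ranged from -0.24 to 0.33 for *Mki67*, -0.49 to 0.24 for *Top2a*, -1.02 to 0.14 for *Ccnb1*, -0.23 to 0.33 for *Cdk1*, -0.59 to 0.043 for *Mcm3*, -0.70 to 0.033 for *Mcm7*, -0.26 to 0.21 for *Ccne1*, -0.63 to 0.31 for *Ccne2*, -0.25 to 0.0047 for *Cdk2*, -0.17 to 0.63 for *Foxm1*, -0.77 to 0.28 for *Mybl2*, -0.93 to 0.068 for *Plk1*, -0.16 to 0.35 for *Cenpe*, -1.02 to 0.32 for *Nusap1*, and -0.90 to 0.22 for *Ube2c*. The 7 others stayed below 0 and were nearest to it without AAV-CTRL 1 and farthest without AAV-CTRL 2, from -0.62 to -0.058 for *Pcna*, -0.53 to -0.033 for *Mcm2*, -0.13 to -0.032 for *Mcm4*, -0.83 to -0.042 for *Mcm5*, -0.71 to -0.052 for *Mcm6*, -0.88 to -0.028 for *Tyms* and -0.82 to -0.13 for *Uhrf1*. With log2(TPM + 0.1) the median of all genes tested moved to -0.11, against 0.0034. The lowest read number of any of the 44 genes in a library was 179.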

Other observations

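The number of reads behind 1 TPM, after scaling each library, is a constant of the gene if its length is fixed. Here it differed by more than 1.5-fold between libraries for 5 of the 44 cell cycle genes (*Ccne2*, *Tyms*, *Cdca8*, *Prc1*, *Bub1*), with a median spread of 1.14-fold, and for 1276 of 12123 genes at 1 TPM or more in every library. The spread was 2.06-fold for *Ccne2*. Between counts and log2(TPM + 1), the fold change of 5 of the 44 genes changed sign, from below to above 0 for *Ccne2* and *Prc1* and from above to below 0 for *Mki67*, *Cdk1* and *Cenpf*. The cause was not tested.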
